A study of Mus musculus with 10 samples.

Results

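Dermatopontin and 9 small leucine-rich proteoglycans, which coat and space collagen fibrils, were followed across 10 clonal lines of mouse 3T3-L1 preadipocytes. The 10 genes were taken by symbol from a total of 19937 genes on the array: Dpt, Dcn, Lum, Fmod, Ogn, Aspn, Prelp, Omd, Bgn and Podn. Each was represented by 1 probe set annotated to that gene alone, so the rule of keeping the brightest probe set had no choice to make. Dpt was chosen by its measured High and Low signals in these same arrays, and the 9 others were added by family, with their signals known. 3T3-L1 is an embryonic fibroblast line that turns into fat cells under insulin, dexamethasone and IBMX. Lines grown from single colonies and kept below confluence had been tested with this cocktail, and were classed by the triglyceride they then stored: 5 Low and 5 High. RNA came from proliferating, untreated cells in DMEM with serum, 1 array per line, so each line is 1 clone and both classes share the parental line. The Low lines, in replicate order, were clones 1E7, 2D7, 2F1, 4D11 and 4H4. The High lines were 3F4, 4D2, 4E3, 5C4 and 5D4, and replicate numbers here are names only.

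Dermatopontin is a small tyrosine-rich matrix protein that binds decorin and fibronectin and speeds collagen fibril assembly. The proteoglycans share a core of leucine-rich repeats and differ in the sugar chains they carry. Decorin, biglycan and asporin form one class, fibromodulin, lumican, PRELP and osteomodulin another, and osteoglycin and podocan belong to further ones. They bind collagen, and several also bind TGF-beta or other growth factors, and fibroblasts of connective and adipose tissue are a main source of them.

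The values are log2 intensities, so a difference of 1 is a doubling of signal on the authors' normalised scale. Array medians lay between 7.74 and 7.84. A gene was tested when its signal exceeded the 25th percentile of the array in at least 5 of the 10 arrays, which held for 16339 genes and for 8 members. Those 8 passed in all 10 arrays, so none passed through 1 class alone: their lowest signal was 7.58, and the highest 25th percentile of any array was 6.47. Lum and Omd were below the filter. Fibroblast genes were bright, with the collagen gene Col1a1 between 12.38 and 12.79 and the mesenchymal gene Vim between 14.05 and 14.15 in every line. Of 6 leukocyte and macrophage genes, 3 were below the filter, among them the defining gene Ptprc at no more than 6.15. The other 3 passed in all 10 arrays: Cd68 between 8.50 and 9.04, Cd14 between 7.91 and 8.80 and Csf1r between 7.44 and 7.84. Of 5 adipocyte genes, Adipoq, at no more than 6.08, and Lep were below the filter. Plin1, between 7.86 and 8.36, Cidec, between 7.36 and 7.67, and Retn, between 7.56 and 7.86, passed in all 10 arrays. The fibroblast marker Fap was also below the filter, between 4.84 and 5.37. In a line measured in bulk, fewer expressing cells and less RNA per cell cannot be told apart.

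Dpt was high in 4 of the 5 High lines and low in every other line. Its signal (Entrez gene 56429) was 7.81, 7.81, 8.56, 8.28 and 8.18 in Low lines 1 to 5. In High lines 1 to 5 it was 9.70, 9.94, 10.36, 10.70 and 7.89. High 1 to 4 lay above all Low lines, and High 5 lay inside the Low range. The 10 values formed a lower set of 6 and an upper set of 4 with a gap of 1.14 between Low 3 and High 1, and no other step between neighbouring values exceeded 0.42. Within the lower set the order of Low 1, Low 2 and High 5 rested on steps of at most 0.07. The class means were 8.13 ± 0.32 for Low and 9.72 ± 1.09 for High (SD, n = 5 each), a difference of 1.59 or 3.01-fold. The difference was 2.05 without High 5 and between 1.34 and 1.70 without any one of the other lines. From the lowest to the highest line the signal spanned 7.42-fold. Dpt heads the set because of this pattern, so these values are given as a description and without a test.

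**Figure D1:**
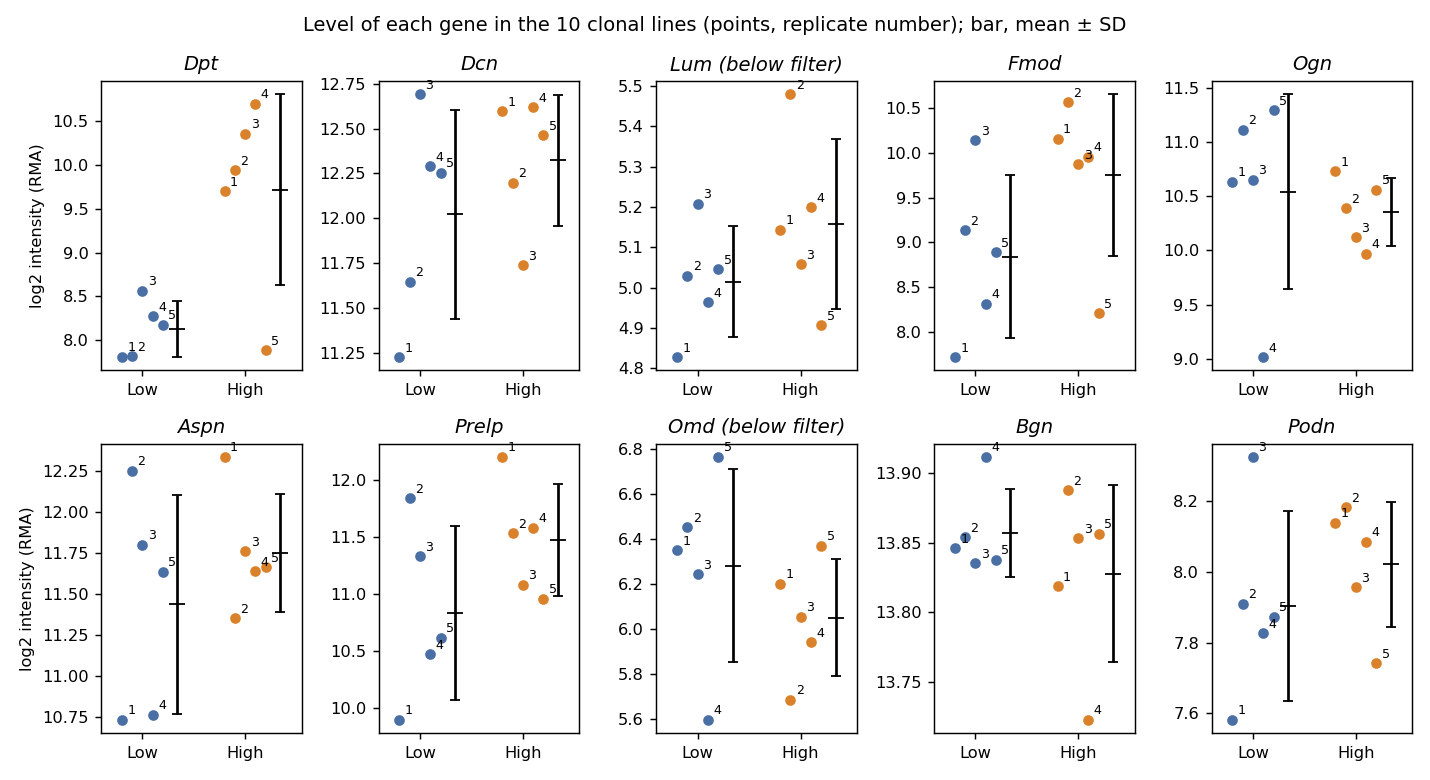
Log2 intensity of the 10 genes in the 5 Low (blue) and 5 High (orange) lines, with the replicate number beside each point and the mean ± SD of each class as a bar; every panel has its own vertical scale. Dpt separates High 1 to 4 (9.70 to 10.70) from the other 6 lines (7.81 to 8.56), while the values of the 9 proteoglycans overlap between classes.

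Among the promoters of these genes, those of Dpt and Omd share a run of 15 bases, and the promoter of Ogn holds its first 9. They are shown because this was the longest run shared by any 2 different members in the 250 bases before the annotated start. RefSeq sequences of GRCm38.p6 were matched for 8 of the 10 genes, Podn with 2 windows, and Dcn and Lum had no entry. The Dpt window is chr1:164796413-164796662 on the plus strand, that of Omd chr13:49582212-49582461 and that of Ogn chr13:49607765-49608014, both on the plus strand. Capitals mark the shared run.
Dpt: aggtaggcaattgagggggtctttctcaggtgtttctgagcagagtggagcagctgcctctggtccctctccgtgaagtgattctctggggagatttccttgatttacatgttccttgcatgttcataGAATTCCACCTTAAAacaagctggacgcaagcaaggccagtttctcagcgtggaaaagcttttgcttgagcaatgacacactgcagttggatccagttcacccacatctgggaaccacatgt
Omd: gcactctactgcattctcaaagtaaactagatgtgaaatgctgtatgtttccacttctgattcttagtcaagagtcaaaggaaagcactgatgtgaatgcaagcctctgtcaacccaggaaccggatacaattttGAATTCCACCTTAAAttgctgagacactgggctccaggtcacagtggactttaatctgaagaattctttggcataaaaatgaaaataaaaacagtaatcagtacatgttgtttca
Ogn: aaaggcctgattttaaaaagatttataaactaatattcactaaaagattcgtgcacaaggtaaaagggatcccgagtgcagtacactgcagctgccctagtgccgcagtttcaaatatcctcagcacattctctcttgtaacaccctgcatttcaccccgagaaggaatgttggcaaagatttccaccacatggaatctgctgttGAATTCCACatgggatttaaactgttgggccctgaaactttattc

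The run GAATTCCACCTTAAA begins 122 bases before the start of Dpt and 115 bases before that of Omd, in the same orientation. On either strand it occurs in 2 of 32851 promoter windows of the same length, 0.00609%, and those are the windows of Dpt and Omd. The shorter run GAATTCCAC, which begins 45 bases before the start of Ogn and is contained in the longer one, occurs in 53 windows, 0.161%. Both runs were found by comparing these promoters with each other, so they are a description of the sequences. Dpt and Omd did not share a pattern over the lines: Omd was highest in Low 5 (6.76) and lowest in Low 4 (5.59), and Dpt was low in both. In High 1 to 4, where Dpt was high, Omd lay between 5.68 and 6.20.

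Among the proteoglycans, the class means differed most for Fmod and Prelp, which lie next to each other on chromosome 1, and the ranges of the classes overlapped for all 9. Of the 7 proteoglycans tested, 5 had a positive and 2 a negative High minus Low difference, with a median of 0.30, against 58% positive and a median of 0.02 over all tested genes. The number past an adjusted p of 0.05 was 0 of 7 in either direction. Over all genes limma called 1 of 16339, 0.00612%, and that gene was not a member. At an unadjusted p under 0.05 limma had 0 of the 7 in either direction, against 7.95% of all genes, 3.16% higher and 4.79% lower in High lines. For 0 of the 10 members were the High and Low values fully apart, against 1.57% of all tested genes. With 5 lines a class and a spread of this size, a p that misses the threshold does not show that the classes were alike.

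Fmod encodes fibromodulin, which binds collagen and regulates fibril thickness. Its signal (Entrez gene 14264) was 7.71, 9.14, 10.14, 8.31 and 8.89 in Low lines 1 to 5, and 10.16, 10.57, 9.87, 9.96 and 8.21 in High lines 1 to 5. High 1 to 4 were again high and High 5 again low, but Low 3 reached their level. The means were 8.84 ± 0.91 and 9.75 ± 0.91 (SD, n = 5 each). High exceeded Low by 0.91, or 1.88-fold (SE 0.47; 95% confidence interval -0.11 to 1.94; limma adjusted p = 0.67). It was 1.30 without High 5 (limma adjusted p = 0.315). When the digit that starts each clone name was a block, which leaves Low 4 and 5 and High 2 and 3 to carry the comparison, it was 1.62.

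Prelp encodes a basic leucine-rich protein that anchors collagen to basement membranes. It measured 9.89, 11.84, 11.33, 10.47 and 10.61 in Low lines 1 to 5, and 12.20, 11.53, 11.08, 11.58 and 10.95 in High lines 1 to 5. Low 1, 4 and 5 lay below every High line, and Low 2 and 3 lay inside the High range. The means were 10.83 ± 0.76 and 11.47 ± 0.49 (SD, n = 5 each). They differed by 0.64 (SE 0.33, 95% confidence interval -0.09 to 1.37; limma adjusted p = 0.676). Without Low 1 the difference was 0.41.

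The class of decorin, asporin and biglycan held 2 genes that varied widely and 1 that hardly varied. Dcn, which encodes the collagen- and TGF-beta-binding decorin, measured 11.23, 11.65, 12.69, 12.29 and 12.25 in Low lines 1 to 5. In High lines 1 to 5 it measured 12.60, 12.20, 11.74, 12.62 and 12.46. Low 1 and Low 2 were lowest, and the other 3 Low lines fell inside or above the High range. The difference was 0.30 (95% confidence interval -0.26 to 0.86; limma adjusted p = 0.797). It was 0.10 without Low 1, 0.47 without Low 3 and -0.30 with the clone digit as a block, so its direction was not kept.

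Aspn encodes asporin, which competes with decorin for collagen. It measured 10.73, 12.25, 11.80, 10.76 and 11.63 in Low lines 1 to 5, and 12.34, 11.35, 11.76, 11.64 and 11.66 in High lines 1 to 5. Low 1 and Low 4 lay apart below the rest. The difference was 0.31 (95% confidence interval -0.30 to 0.93; limma adjusted p = 0.807), 0.14 without Low 1 or without Low 4, 0.17 without High 1 and 0.52 without Low 2.

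Bgn, which encodes biglycan, measured 13.82 to 13.91 in 9 of the lines and 13.72 in High 4. Its means were 13.86 ± 0.03 and 13.83 ± 0.06 (SD, n = 5 each), a difference of -0.03 (95% confidence interval -0.15 to 0.09; limma adjusted p = 0.894). The largest value on each array was between 14.33 and 14.47, and whether closeness to the top of the scale narrows the Bgn differences was not tested.

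Ogn and Omd are neighbours with Aspn on chromosome 13. Ogn encodes osteoglycin, also called mimecan, and measured 10.63, 11.11, 10.65, 9.02 and 11.29 in Low lines 1 to 5. In High lines 1 to 5 it measured 10.73, 10.39, 10.12, 9.97 and 10.56. The signal was lowest in Low 4, and the other 4 Low lines lay at or above most High lines. The difference was -0.19 (95% confidence interval -0.95 to 0.58; limma adjusted p = 0.894), -0.57 without Low 4 and 0.00 without Low 5. With the clone digit as a block it was 0.10.

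Omd, which encodes osteomodulin, exceeded the 25th percentile in 2 of the 10 arrays and was not in the fit. Its values were 6.35, 6.45, 6.24, 5.59 and 6.76 in Low lines 1 to 5, and 6.20, 5.68, 6.05, 5.94 and 6.37 in High lines 1 to 5. High lay 0.23 lower, which the spread among lines covers (High minus Low -0.23; two-sided exact permutation p = 0.333 over 252 assignments). It was -0.40 without Low 4, -0.14 without High 2 and -0.11 without Low 5.

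Podn encodes podocan and measured 7.58, 7.91, 8.32, 7.83 and 7.87 in Low lines 1 to 5, and 8.14, 8.18, 7.96, 8.09 and 7.74 in High lines 1 to 5. Low 1 was lowest and Low 3 highest, so the High lines lay between Low values. The difference was 0.12 (95% confidence interval -0.16 to 0.39; limma adjusted p = 0.827). It was 0.04 without Low 1, 0.08 without High 2, 0.19 without High 5 and 0.22 without Low 3. Lum, which encodes lumican, lay below the 25th percentile in all 10 arrays, between 4.83 in Low 1 and 5.48 in High 2, and differed by 0.14 (two-sided exact permutation p = 0.246). The Lum difference was 0.06 without High 2.

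**Figure D2:**
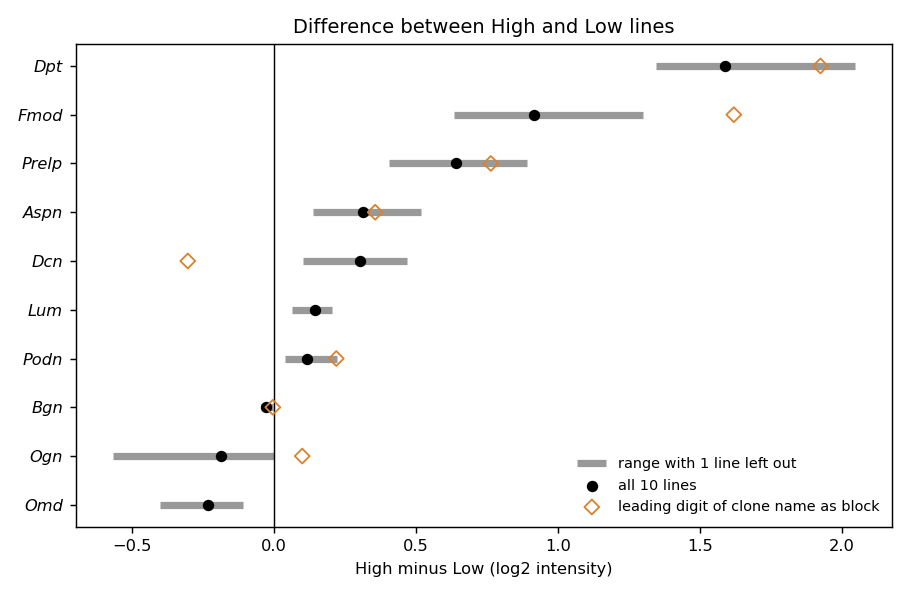
High minus Low difference in log2 intensity for each gene (black point), its range when 1 line is left out (grey bar) and, for the 8 tested genes, the value when the first digit of clone names is a block (open diamond). Dpt stays between 1.34 and 2.05 when 1 line is left out, while Dcn and Ogn change sign with the block.

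Most of these genes varied widely between lines. Ranked by SD over the 10 lines among 16339 tested genes, Dpt was number 20 (SD 1.13), Fmod 38 (0.98), Prelp 117 (0.69), Ogn 144 (0.64), Aspn 216 (0.53) and Dcn 288 (0.49). The SD of Dpt reflects the pattern it was chosen for and is left out of the counts that follow. Of the 7 tested proteoglycans, 5 were among the 2% of genes with the highest SD, which began at 0.46. Their median SD was 0.53, and that of all tested genes 0.14. As the proteoglycans were added with their signals known, this is a description. Podn, at 0.22, was number 2397, and Bgn, at 0.05, number 16168. After each class mean was subtracted, the number of proteoglycans among the highest 2% was again 5. It was 3 without Low 1 and 4 without Low 3 or without Low 4. From the lowest to the highest line, Fmod spanned 7.21-fold, Prelp 4.94-fold, Ogn 4.84-fold, Aspn 3.04-fold and Dcn 2.76-fold, against 1.14-fold for Bgn.

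**Figure D3:**
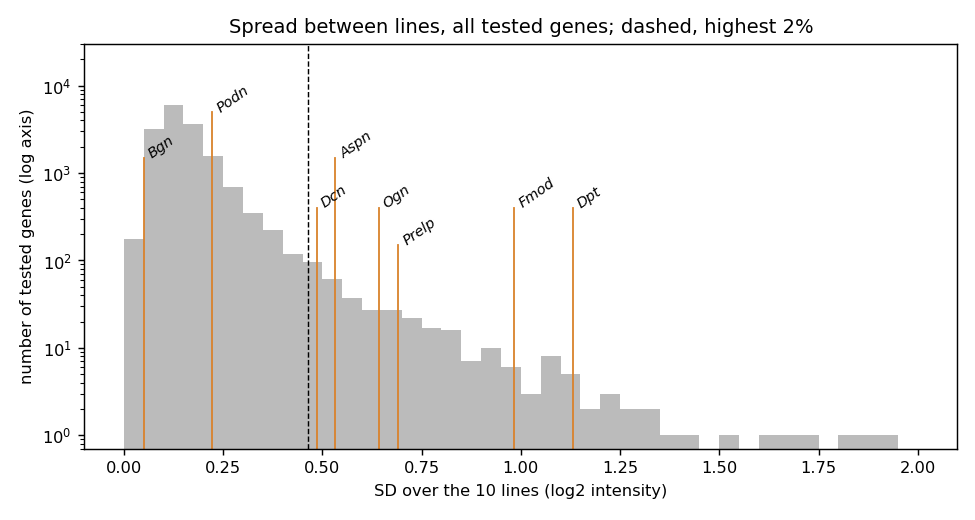
Number of tested genes (log axis) by SD over the 10 lines in log2 intensity, with the 8 tested members marked in orange and the start of the highest 2% as a dashed line at 0.46. Bgn and Podn lie to the left of it, and Dcn, Aspn, Ogn, Prelp, Fmod and Dpt to the right.

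Single lines stood out across the family. Low 1 was the lowest line for 6 of the 9 proteoglycans, namely Dcn, Lum, Fmod, Aspn, Prelp and Podn, and for 5 of the 7 tested, against 10.8% of all tested genes. For Dpt, Low 1 and Low 2 were lowest, and both measured 7.81. Low 4 was the lowest line for Ogn and Omd and, after Low 1, for Aspn. Most of the proliferation markers were high in Low 4. It had the highest signal of Mki67, 12.83 against 12.24 to 12.52 in the other lines, and of Ccna2, Mcm5 and Bub1. Top2a, Cdk1, Pcna and Aurkb were highest in High 2, and Mcm2 in High 3. Low 4 came close behind for Top2a (11.94 against 11.98), Aurkb (12.95 against 12.97), Mcm2 (12.39 against 12.40) and Cdk1 (12.73 in both). For Pcna, Low 4 measured 13.53 against 13.80 in High 2. Whether proliferation has a part in the Ogn level of Low 4 was not tested. Low 3 was the highest line for Dcn and Podn.

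Some pairs of the 9 proteoglycans rose and fell together over the lines, but most did not pass the threshold. The lowest r was -0.43, for Lum and Omd (adjusted permutation p = 0.471). Bgn had a negative r with every other proteoglycan, each with an adjusted permutation p of at least 0.615. Among 36 pairs, 5 had an adjusted permutation p under 0.05 for Pearson's r and 4 for Spearman's rho, with Benjamini-Hochberg adjustment over the 36. The 5 had an r of at least 0.84. That value was reached by 1.13% of all pairs of tested genes and by 0.717% of pairs of tested genes with an SD of at least 0.2. In either sign, an r of that size was reached by 1.53% and 1.15% of these pairs. The two-sided permutation p at that r, for Aspn and Prelp, was smaller, at 0.00208. These genes share the same 10 arrays. The permutation treats the lines as exchangeable, so its p values do not allow for patterns that many genes share over these lines. As the proteoglycans were added with their signals known, the p values describe the pairs. Those shares cover tested genes only. Of the 5 pairs, Fmod with Podn and Aspn with Prelp were of tested genes, and the others held Lum or Omd, which were below the filter. Fmod and Podn were closest, with r = 0.93 (permutation p = 9e-05, adjusted p = 0.00198) and rho = 0.96 (permutation p = 7e-05, adjusted p = 0.00096). The r was 0.85 without Low 1 and High 5, the lines farthest from the Fmod median, and 0.95 after the class means were subtracted. Lum followed Fmod, r = 0.90 (permutation p = 0.00011, adjusted p = 0.00198) and rho = 0.95 (permutation p = 8e-05, adjusted p = 0.00096), and Podn, r = 0.85 (permutation p = 0.00156, adjusted p = 0.014) and rho = 0.96 (permutation p = 3e-05, adjusted p = 0.00096). The r was 0.92 and 0.93 for these without Low 1 and High 2. The Lum signal, below the filter in every array, spanned 0.65 on the log2 scale.

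Of the neighbours on chromosome 13, Ogn and Omd had r = 0.86 (permutation p = 0.00124, adjusted p = 0.014) and rho = 0.84 (permutation p = 0.00371, adjusted p = 0.0334). The r was 0.69 without Low 4 and Low 5. Aspn, also of that neighbourhood, had r = 0.55 with Ogn (permutation p = 0.1, adjusted p = 0.33) and rho = 0.43 (permutation p = 0.219, adjusted p = 0.51). It was closer to Prelp on chromosome 1, r = 0.84 (permutation p = 0.00208, adjusted p = 0.015) and rho = 0.77 (permutation p = 0.0128, adjusted p = 0.0771), with r = 0.63 without Low 1 and Low 4. Fmod and Prelp, neighbours themselves, had r = 0.78 (permutation p = 0.00874, adjusted p = 0.0524) and rho = 0.77 (permutation p = 0.0127, adjusted p = 0.0771), with r = 0.66 without Low 1 and High 5. Dcn and Lum, adjacent on chromosome 10, had r = 0.45 (permutation p = 0.188, adjusted p = 0.451) and rho = 0.48 (permutation p = 0.164, adjusted p = 0.502), with r = 0.08 without Low 1 and Low 2.

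**Figure D4:**
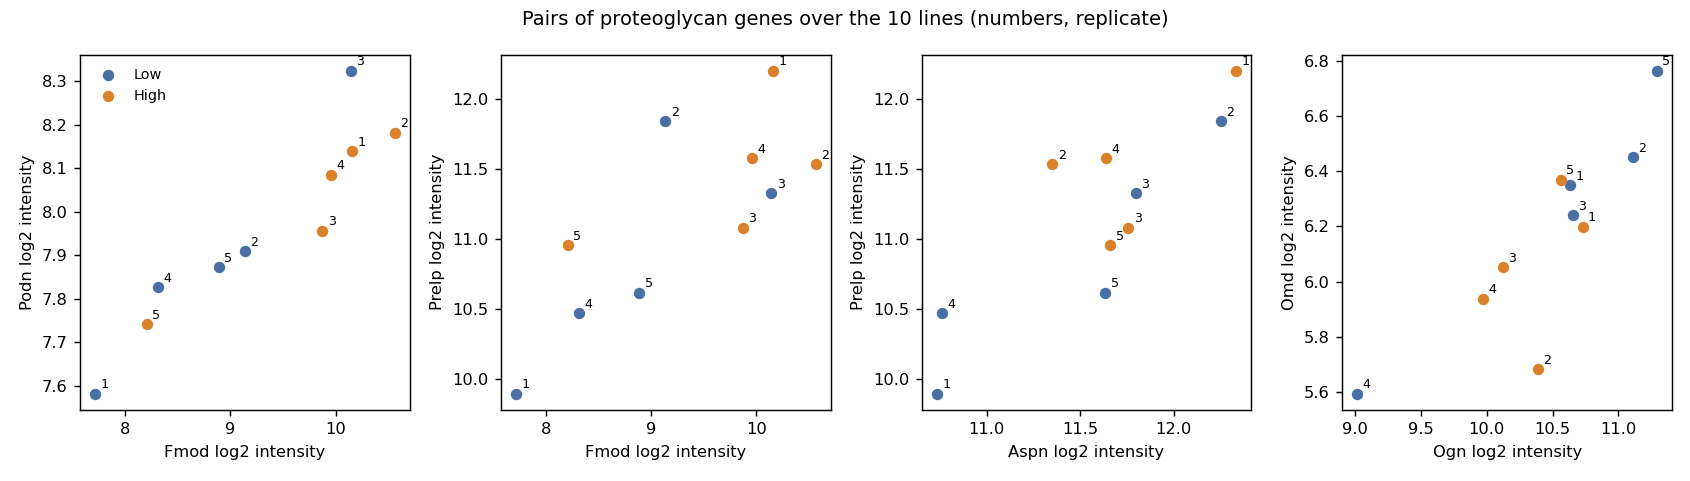
Log2 intensity of 4 pairs of proteoglycan genes in the 10 lines, Low in blue and High in orange, with replicate numbers. Fmod and Podn run together over both classes (r = 0.93), Low 1 sits at the lower end of the 3 left panels, and Low 4 and Low 5 are the ends of the Ogn and Omd panel.

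The flanking genes that passed the filter all had SD ranks of 1060 or lower down the list, outside the highest 2%. On either side of Dpt, the sodium pump subunit gene Atp1b1 differed by 0.23 (limma adjusted p = 0.763) and the chemokine gene Xcl1 by 0.13 (limma adjusted p = 0.745), and Atp1b1 was lowest in Low 2, at 11.63. Optc, the opticin gene beside Prelp, ranged from 6.96 to 7.36, and Btg2, beside Fmod, from 8.05 to 9.01. Nol8, beyond Ogn, differed by -0.15 (limma adjusted p = 0.727), and Ecm2, beyond Aspn, stayed between 5.83 and 6.57. Kera, beyond Lum, stayed between 5.54 and 6.07. Btg1, before Dcn, had SD rank 15342. Haus7 and Atp2b3 flank Bgn, and Slc1a7 and Scp2 flank Podn. Their differences were -0.05, 0.05, 0.12 and 0.03, with limma adjusted p of 0.882, 0.89, 0.785 and 0.956.

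The genes most like Dpt over the 10 lines were ranked by Pearson's r among 3103 named genes with an SD of at least 0.2. As the Dpt values lie in 2 separate sets, r mainly measures whether a gene sets High 1 to 4 apart from the other 6 lines, and it is given as a description. Pde2a, which encodes a phosphodiesterase of cyclic nucleotides, came first (r = 0.97, rho = 0.85). It measured 7.75, 7.52, 7.92, 7.74 and 7.65 in Low lines 1 to 5, and 8.39, 8.18, 8.41, 8.59 and 7.70 in High lines 1 to 5. The imprinted gene Mest came next (r = 0.96, rho = 0.92), with 6.56 to 6.90 in Low lines, 9.39 to 10.93 in High 1 to 4 and 6.62 in High 5. In both, as in Dpt, High 5 lay among the Low lines.

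Slc22a2, an organic cation transporter gene, had r = 0.92, Serpina3n, a serine protease inhibitor gene, 0.92, Pianp 0.91 and Grpr, the receptor for gastrin-releasing peptide, 0.90. Serpina3n differed from the rest in that High 5, at 7.41, lay just above the highest Low line at 7.38. Within the 6 lines with the lowest Dpt, r was 0.72 for Pde2a, 0.57 for Mest, 0.63 for Slc22a2, 0.23 for Serpina3n, -0.01 for Pianp and -0.19 for Grpr. The 3 genes with the most negative r were Pter (-0.93), Cachd1 (-0.92) and Tanc2 (-0.92). Tanc2 measured 9.11 to 9.49 in High 1 to 4 and 10.26 in High 5, against 9.74 to 10.33 in Low lines. Among the proteoglycans, Fmod ranked number 42 of 3103 by likeness to Dpt (r = 0.77), Podn 264 (r = 0.57), Prelp 409 (r = 0.49), Dcn 730 (r = 0.31), Aspn 869 (r = 0.23) and Ogn 2029 (r = -0.31).

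**Figure D5:**
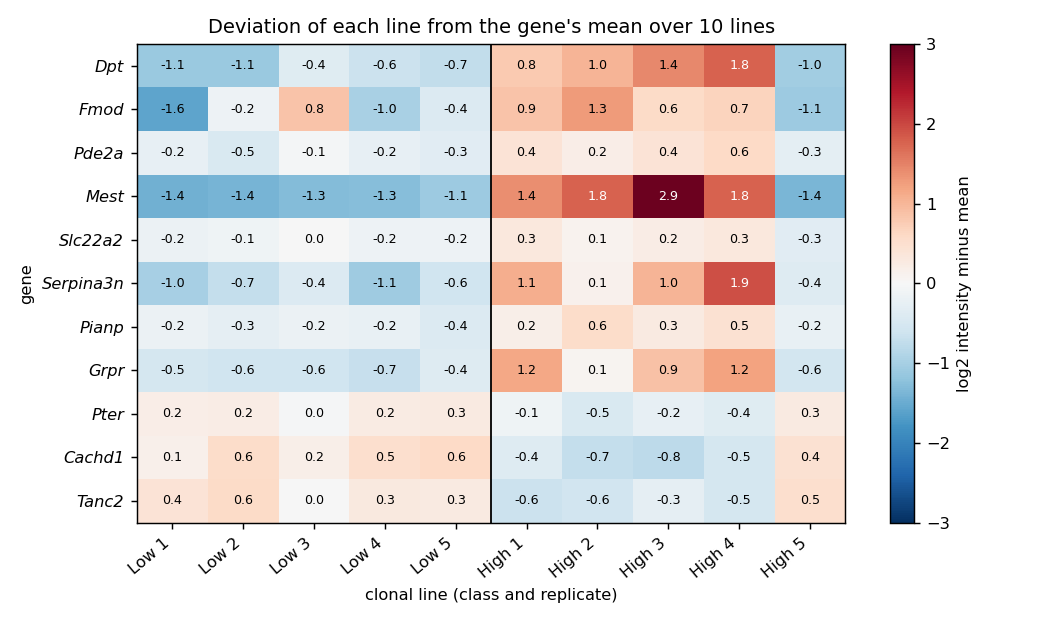
Deviation of each line from the gene's mean over the 10 lines, in log2 intensity (red higher, blue lower), for Dpt, Fmod, the 6 genes most like Dpt and the 3 most opposite; the black line divides Low from High. High 5 has the colour of the Low lines for Dpt, Fmod, Pde2a and Mest, and Low 3 that of High 1 to 4 for Fmod.

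Other proteoglycan genes of the leucine-rich family were listed as well. Of 9, 5 were tested, and 0 passed in either direction over all genes in limma. Podnl1, the podocan-like gene, averaged 9.24 ± 0.19 over the Low and 8.98 ± 0.16 over the High lines (SD, n = 5 each), a difference of -0.26 (limma adjusted p = 0.539). Chad, for chondroadherin, and Optc differed by 0.05 and 0.04. The median SD of these 5 genes was 0.12, and 0 of them were in the highest 2%.

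All listed genes for enzymes that build the sugar chains of the proteoglycans were measured. For chondroitin and dermatan sulfate, 20 of 20 genes were tested and 0 passed in either direction, with 14 positive and 6 negative differences and a median of 0.07. Ust, a uronosyl sulfotransferase, differed by -0.28 (limma adjusted p = 0.432). The chondroitin polymerising factor gene Chpf differed by 0.24 (limma adjusted p = 0.453) and the sulfotransferase gene Chst12 by 0.20 (limma adjusted p = 0.472). For keratan sulfate and tyrosine sulfation, 9 of 9 were tested and 0 passed, with a median of 0.04. B3gnt2 differed by -0.16, Chst1 by 0.20 and the tyrosylprotein sulfotransferase gene Tpst1 by 0.11, with limma adjusted p of 0.703, 0.775 and 0.784.

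Collagens and other binding partners made up the next list. The list held 19 symbols, with Ctgf and Ccn2, and Wisp1 and Ccn4, as older and newer names of the same genes. A probe set was found for 16 symbols, all 16 were tested, and 0 passed in either direction. Their median difference was 0.07 and their median SD 0.19. Ccn2, the connective tissue growth factor that decorin binds, averaged 12.10 ± 0.51 over the Low and 11.45 ± 0.16 over the High lines (SD, n = 5 each), a difference of -0.65 (limma adjusted p = 0.417), and was the 1 gene of that list in the highest 2% by SD. The collagen VI genes Col6a1 and Col6a2 differed by 0.29 and 0.26 (limma adjusted p = 0.661 and 0.676).

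Growth factors bound by the proteoglycans, their receptors and the proteases that process them had 0 of 9, 0 of 15 and 0 of 12 tested genes past the threshold. Tgfb1 differed by 0.22, Igf1 by 0.28 and Tgfb3 by -0.12 (limma adjusted p of 0.751, 0.802 and 0.808). Among receptors, the innate immune receptor gene Tlr2, which biglycan can engage, ranged from 9.20 to 9.57 in Low and from 9.59 to 9.95 in High lines (limma adjusted p = 0.255). The TGF-beta co-receptor gene Tgfbr3 differed by 0.25 and the IGF1 receptor gene Igf1r by -0.22 (limma adjusted p = 0.42 and 0.482). Among proteases, the procollagen proteinase genes Tll1 and Bmp1 differed by -0.61 and 0.13, and the stromelysin gene Mmp3 by 0.75 (limma adjusted p of 0.635, 0.758 and 0.661). Wide spread between lines was also seen here. Of the 12 tested proteases, 3 were in the highest 2% by SD, namely Tll1, Mmp3 and Mmp9, and the median SD of the 12 was 0.33. Of the growth factors, Bmp4 was in the highest 2%, and of the receptors 0.

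Markers of other connective tissue cells were measured in the same lines, and their part in the members' spread was not tested. The tenocyte gene Tnmd was high in Low 2, at 10.02, and in High 4, at 9.10, and lay between 6.71 and 8.29 in the other lines. The other tenocyte genes listed did not share this pattern. Scx ranged from 7.60 to 8.07 and was 7.72 in Low 2. Mkx ranged from 9.55 to 10.23, highest in High 1. Egr1 ranged from 10.07 to 11.05, highest in Low 2, and was 10.58 in High 4. The cartilage gene Acan stayed between 6.82 and 7.33, and the mean log2 signal of 6 cartilage and bone markers between 8.06 and 8.40 in all lines. That mean joins unlike levels. Sox9 was bright, between 12.18 and 12.76, and Col2a1 lay between 8.76 and 9.13. Alpl, Sp7 and Ibsp reached at most 8.05, 7.17 and 6.26. The mean of 6 contractile markers was 10.30 to 10.68 in Low and 10.32 to 10.59 in High lines, but its genes differed in direction. Tagln, for transgelin, measured 11.27 to 11.75 in Low lines, 10.38 to 11.18 in High 1 to 4 and 11.32 in High 5, a difference of -0.70 (limma adjusted p = 0.277). Cnn1 differed by -0.30 and Acta2 by -0.09, while Des differed by 0.28, Myl9 by 0.23 and Myh11 by 0.06, and Tagln, Cnn1 and Des were among the highest 2% by SD. In Tagln, as in Dpt, High 5 lay within the Low range. The mean of 9 proliferation markers was 12.43 to 12.75 in Low and 12.43 to 12.69 in High lines, and 0 of the 9 tested passed in either direction in limma.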

How the data were processed

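The deposited values are log2 intensities, 1 per probe set and array; RMA is named without a version in the submitters' processing notes, and its settings, like any batch of arrays, were not given in the sources used here. RMA pulls arrays towards one distribution. Probe sets were named through the platform annotation, and probe sets with 1 symbol gave 19937 genes. The 2 classes were compared by limma 3.58.1 in R 4.3.3 (lmFit and eBayes, two-sided, Benjamini-Hochberg over 16339 tested genes, threshold 0.05); 95% confidence intervals are limma's. Genes below the filter got exact permutation tests, and correlations permutation tests with 100000 resamples (numpy 2.4.6, Python 3.11.15). The fit was tested on simulated data. Each line is 1 clone on 1 array, so the spread holds clonal and technical variation, and the number of arrays limits precision. Members and lists were chosen with earlier results of these data known. Named genes are the members; of each list, genes past the threshold, otherwise up to 3 with the smallest p; for likeness to Dpt, the 6 highest and 3 lowest r; and flanking genes. Flanks of Bgn and Podn, some markers, the share of all gene pairs and the counts without Dpt were added after values were seen. Neighbours and promoters come from RefSeq tables of GRCm38.p6. Alternatives covered filter, normalization, variance model, array weights, clone-name digit and each line left out; those for the SD ranking were chosen after seeing the data.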

Additional observations from a re-analysis of the deposited data

Results flagged for a closer look

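In groups of 5 lines, 8 of 156 sets of values held a single line far from its 4 fellows. Chance alone gives about 1 in 20, or 7.8 sets. Among the members this held for Bgn, at 13.91 in Low 4 against 13.84 to 13.85 in the other Low lines. Among genes like or opposite to Dpt, Slc22a2 was 7.44 in Low 3 against 7.30 to 7.33, and Pter was 9.80 in Low 3 against 10.05 to 10.13. Beside Dpt, Atp1b1 was 11.63 in Low 2 against 12.36 to 12.52. Among markers, Sp7 was 6.90 in Low 3 against 6.81 to 6.83, and Acan was 6.92 in Low 3 against 7.02 to 7.05. In High lines, Tie1 was 7.84 in High 4 against at most 7.60, and Mcm2 was 12.01 in High 5 against 12.31 to 12.40. The Ogn value of Low 4, 9.02, had a gap of 0.7093 of the range, just under the critical value of 0.71.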

How the results depend on the processing

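No paired analysis was possible because the labels give no replicate numbers that pair lines; the numbers here only name them. The number of genes limma called, 1, became 2 with arrays centred on their medians or with a variance trend, 3 with array weights, 0 with the first digit of clone names as a block, and 1 to 19 with 1 line left out, 19 without High 5. Of the 7 proteoglycans, 0 were called under any of the 19 alternatives. The count over all members was 0 to 1 with 1 line left out, and the 1, without High 5, was Dpt, which its own values chose, so it is no test of Dpt. Dpt, chosen by its values, kept its sign under all 19 alternatives, as did Fmod, Prelp, Aspn, Podn and Bgn. The alternatives of filter, mean over probe sets and variance model could not change a member's difference, only its p, so they say nothing about its sign. Dcn turned to -0.30 with the block, and Ogn to 0.10 with the block and 0.0004 without Low 5. Lum and Omd kept their sign under 12 alternatives. With 1 line left out, Dpt ran from 1.34 to 2.05, Fmod from 0.63 to 1.30, Prelp from 0.41 to 0.89, Dcn from 0.10 to 0.47, Aspn from 0.14 to 0.52, Podn from 0.04 to 0.22, Ogn from -0.57 to 0.00 and Bgn from -0.04 to -0.00. Of the 6 genes most like Dpt, 1 stayed among the 6 highest by Spearman's rho, 3 after class means were subtracted, and 2 to 6 with 1 line left out, 2 without High 3 or without High 4. With 1 line left out, Lum ran from 0.06 to 0.21 and Omd from -0.40 to -0.11. Members among the highest 2% by SD, Dpt included, numbered 4 to 6 with 1 line left out. The cause of these shifts was not tested.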
